A study of Mus musculus with 12 samples.

Results

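Collagen genes were taken from the table of all genes as every gene whose name is Col, a type number, the letter a and a chain number. This gave 43 genes of 34820 listed, from 26 collagen types. They were split into 11 fibrillar collagens, 6 basement membrane collagens (the type IV chains) and 26 other collagens. The study measured RNA by bulk sequencing in isolated Langerhans islets of C57/Bl6 mice, in which Taf4, a subunit of the general transcription factor TFIID, had been inactivated in beta cells. The mutants (TAF4 KO in the labels, Taf4 b-/- below) carried Ins1::Cre-ERT2 and 2 loxP-flanked Taf4 alleles and were sampled 1, 3 and 5 weeks after tamoxifen. Controls (Wild type in the labels, WT below) were Taf4+/+ and, per the study's methods, also carried Ins1::Cre-ERT2 and received tamoxifen. Mice of both genotypes were 11 to 13 weeks old at the 3 tamoxifen injections, and the labels give no time for the WT islets. There were 3 libraries at 1 week, 3 at 3 weeks, 2 at 5 weeks (replicates 2 and 3; replicate 1 was not analysed here) and 3 of WT. Each replicate pooled islets of 2 mice, purified islets were cultured for 24 h after collagenase digestion, and the Ins1 promoter restricted recombination to beta cells. A gene made by cells not derived from beta cells is therefore measured in cells that keep their Taf4 alleles. By lineage tracing at a later time, the paper reported that most Gcg-expressing cells inside mutant islets came from beta cells. Which cells make each collagen was not measured here. In bulk RNA fewer cells of a type and less RNA per cell cannot be told apart.

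Collagens are secreted as trimers of chains wound into a triple helix, and they form the main protein scaffold outside cells. Fibrillar collagens such as types I, III and V build the ropes of connective tissue. Type IV chains assemble into the sheet-like network of basement membranes, and the remaining types decorate fibrils, anchor or link basement membranes, form beaded microfilaments or span the plasma membrane. In the islet, the vascular basement membrane surrounds capillaries that run among the endocrine cells, and it is generally attributed to endothelial cells and pericytes. Fibrillar collagens are mainly products of fibroblasts and other stromal cells.

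The libraries held 13865518 to 21581153 counts, and 20180 genes passed the filter on low counts, all 43 collagens among them. Taf4, listed as Taf4a, averaged 31.1 ± 5.19, 26.5 ± 0.761 and 24.6 ± 4.10 CPM (counts scaled to a library of 1e6) at 1, 3 and 5 weeks, against 27.5 ± 3.93 CPM in WT (SD, n = 3, 3, 2 and 3), so the count over the whole gene in whole islets does not separate the genotypes. The islet hormone genes Ins1, Ins2 and Gcg were abundant in every library. The 20 markers of acinar cells, which surround islets in the pancreas, took 6.22 to 21.1% of counts at 1 week, 2.98 to 4.22% at 3 weeks and 0.0322 to 0.212% at 5 weeks, against 25.2 to 45.9% in WT. Xist, the transcript of the inactive X chromosome, averaged 1826, 1661 and 1902 CPM in the mutants at 1, 3 and 5 weeks, against 25.0 CPM in WT, and the Y-linked Ddx3y had no count in any mutant library and 42.3 CPM on average in WT. Sex-linked expression and genotype therefore cannot be told apart in comparisons with WT. The 3 mutant groups are alike in both, so comparisons among them leave both aside and do not separate them. Values are given below as CPM scaled by TMM (edgeR's trimmed mean of M values), and a gene is called when its adjusted p is below 0.05 in edgeR's quasi-likelihood test over all genes tested.

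Against WT, 23 of the 43 collagens were called lower and 0 were called higher 5 weeks after tamoxifen. Of all 20180 genes tested, 14.2% were called lower and 15.2% higher in that comparison. DESeq2 called 25 lower and 0 higher, and at an unadjusted p below 0.05 edgeR had 28 lower and 0 higher. With edgeR, 22 of the 23 also passed the study's limit of 1 on the log2 scale, as did 11.3% of all genes. The 23 were 7 of 11 fibrillar collagens, 3 of 6 type IV chains and 13 of 26 others. The median log2 fold change was -1.32 over the 43 genes, against -0.03 over all genes tested. It was nearly the same in the 3 classes, at -1.33 for fibrillar, -1.30 for type IV and -1.28 for other collagens. The median gives each gene the same weight, and the mean summed CPM of the classes differed more. It was 40.6 CPM at 5 weeks against 126.0 CPM in WT for fibrillar collagens. For type IV it was 52.3 against 100.2 CPM, and for other collagens 68.2 against 195.7 CPM. Over the 31 collagens under 10 CPM in every group the median was -1.25, against -0.47 over all tested genes of that level. Over the 12 collagens of at least 10 CPM in 1 group it was -1.90, against 0.24 over all such genes. Of the 23 calls, 12 held with each library left out in turn, namely those of Col1a1, Col1a2, Col4a1, Col4a3, Col6a1, Col6a2, Col6a3, Col6a6, Col7a1, Col12a1, Col14a1 and Col15a1, and 11 were lost in at least 1 of these fits. The count of lower collagens was 12 without the library of replicate 2 at 5 weeks, and 10 when library totals alone were used for scaling. That scaling moved the median of all genes up by 0.99 and raised the higher calls to 91.7% of all calls (51.6% with TMM). The collagen median relative to all genes was then -1.29, a value that scaling can hardly change because it shifts all genes about alike. Of the 12 genes named above, Col4a1 (-0.083), Col6a3 (-0.20) and Col12a1 (-0.58) lost their calls with library totals alone.

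The earlier times showed fewer calls. At 3 weeks, 10 collagens were called lower and 0 higher, against 7.84% lower and 8.51% higher of all genes, where DESeq2 called 12 lower and 1 higher and edgeR had 1 higher at an unadjusted p below 0.05. By class, 3 of 11 fibrillar, 0 of 6 type IV and 7 of 26 other collagens were lower, with median log2 fold changes of -0.74, -0.16 and -0.89. Over all genes tested the median was -0.05. Under 10 CPM in every group it was -0.75 over 31 collagens, against -0.30 over all genes of that level. At the higher level it was -0.68 over 12 collagens, against 0.12. Calls of 5 genes (Col5a1, Col6a3, Col6a4, Col6a6 and Col7a1) held with each library left out. Of these, Col5a1 (-0.76) and Col6a3 (-0.47) were not called with library totals alone. The count at 3 weeks was 6 without replicate 2 or without replicate 3 at 3 weeks. At 1 week, 5 collagens were called lower and 2 higher, against 4.35% lower and 5.45% higher of all genes. The 7 called genes were Col6a6, Col7a1, Col2a1, Col16a1 and Col22a1 (lower) and Col4a2 and Col6a5 (higher), and the median log2 fold change was -0.14 in fibrillar, -0.53 in type IV and -0.62 in other collagens. The type IV sum at 1 week was 103.9 to 130.3 CPM, against 84.8 to 110.3 CPM in WT, so the negative median is not a lower sum. Over all genes tested the median at 1 week was -0.04. Under 10 CPM in every group it was -0.62 over 31 collagens, against -0.27 over all genes of that level. At the higher level it was 0.34 over 12 collagens, against 0.10. Of these 7 calls, those of Col6a6 and Col7a1 held with each library left out. The lower calls at 1 week were 2 without WT replicate 1 or 2, and 3 without replicate 3 at 1 week. The higher calls were 0 without WT replicate 1 or 2 or without replicate 2 at 1 week, and 1 without WT replicate 3. With the limit of 1 on the log2 scale added, 1 gene was higher at 1 week, against 1.6% of all genes.

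**Figure D1:**
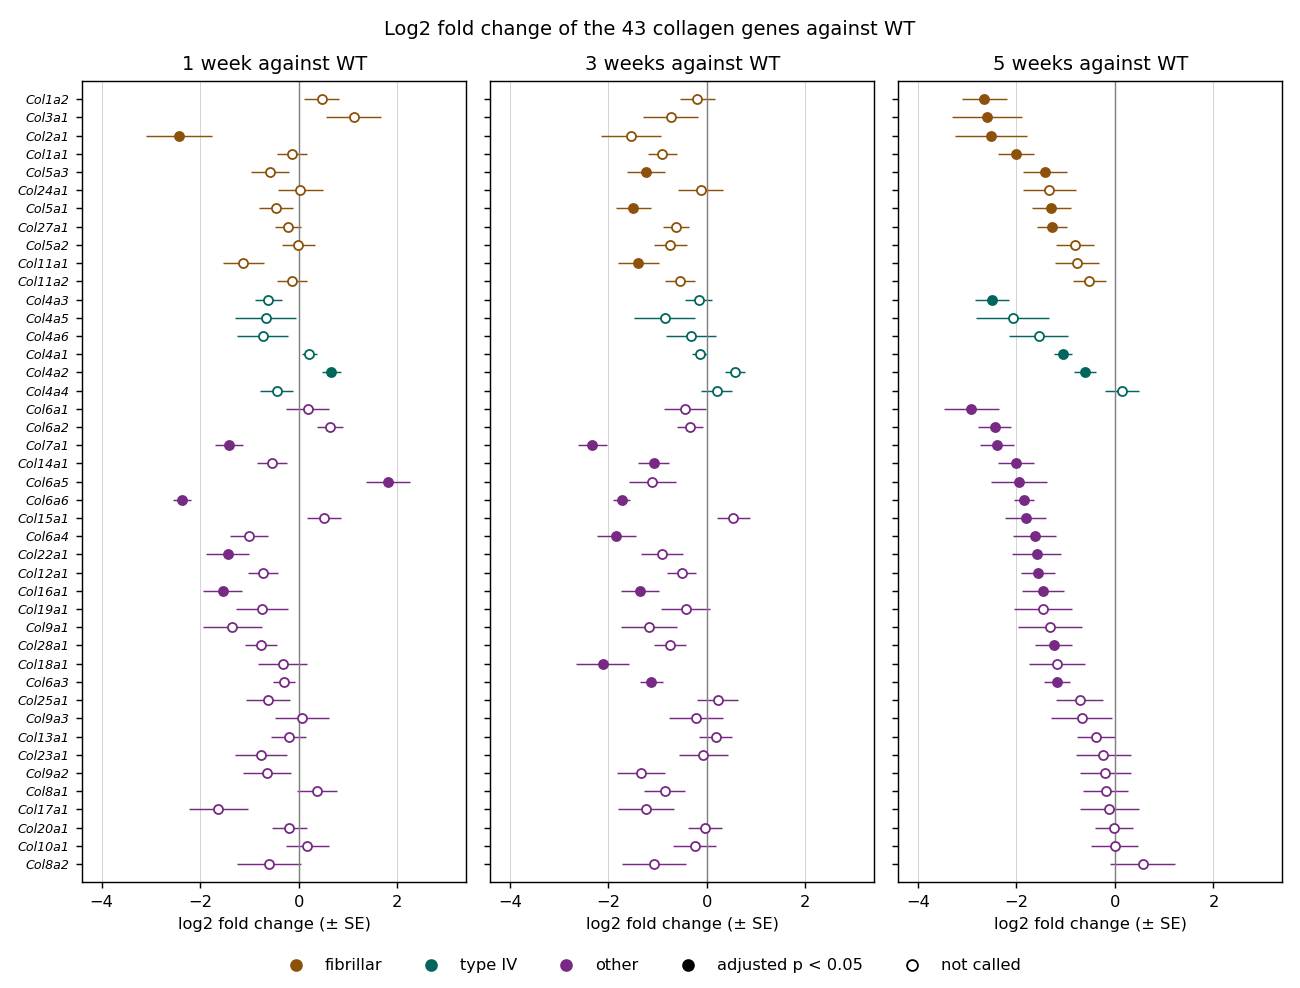
Log2 fold change against WT (x axis, with its standard error) of each of the 43 collagen genes (rows) at 1, 3 and 5 weeks after tamoxifen. Filled points, those with an adjusted p below 0.05, number 7 at 1 week, 10 at 3 weeks and 23 at 5 weeks, and all but the 2 higher ones at 1 week lie left of zero.

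Sequences upstream of 4 collagens are shown because these genes differ in timing: Col6a6 and Col7a1 were lower from 1 week on, while Col1a2 and Col3a1 were called only at 5 weeks among the comparisons with WT. Each is the stretch of 150 bases before the RefSeq transcription start (GRCm38.p6, read 5′ to 3′ on the gene's strand). Capitals mark a match on either strand to TATAAA, the box where the TATA-binding protein of TFIID can sit, to CCAAT, the box of NF-Y, or to GGGCGG, the GC box of Sp factors. The stretches are chr9:105828086-105828235 (minus strand) for Col6a6, chr9:108953436-108953585 (plus) for Col7a1, chr6:4505468-4505617 (plus) for Col1a2 and chr1:45311388-45311537 (plus) for Col3a1.
Col6a6: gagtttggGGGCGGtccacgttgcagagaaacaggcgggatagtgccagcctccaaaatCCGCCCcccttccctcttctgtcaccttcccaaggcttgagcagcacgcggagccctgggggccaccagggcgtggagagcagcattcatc
Col7a1: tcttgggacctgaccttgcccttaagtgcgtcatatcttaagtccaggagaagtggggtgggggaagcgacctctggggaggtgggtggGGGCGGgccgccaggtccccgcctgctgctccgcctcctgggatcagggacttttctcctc
Col1a2: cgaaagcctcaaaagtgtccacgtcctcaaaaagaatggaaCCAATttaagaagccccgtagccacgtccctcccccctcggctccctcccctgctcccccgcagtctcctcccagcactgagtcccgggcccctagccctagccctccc
Col3a1: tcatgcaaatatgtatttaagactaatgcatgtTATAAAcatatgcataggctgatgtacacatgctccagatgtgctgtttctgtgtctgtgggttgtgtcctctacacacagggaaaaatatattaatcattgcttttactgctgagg

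In the longer window of 250 bases before the start, Col1a2 also held GC boxes at 205 and 188 bases and Col7a1 a CCAAT box at 249 bases, so the motifs did not divide these 4 genes by timing. Over this window, RefSeq gave 38 promoters for 35 of the 43 collagens, and Col1a1, Col2a1, Col4a3, Col5a2, Col9a3, Col12a1, Col14a1 and Col22a1 had none. The letters TATAAA stood in 5 of the 38, or 13.2%, against 12.4% of all 32851 promoters in the table. CCAAT stood in 13, or 34.2%, against 33.8%, and GGGCGG in 22, or 57.9%, against 32.7%. By class, GGGCGG stood in 6 of 8 fibrillar, 3 of 5 type IV and 13 of 25 other collagen promoters. Both strands were searched, and a match counted whether or not it overlapped one of another motif. A match in these letters is a description of the sequence only.

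Fibrillar collagens first. Col1a1 (ENSMUSG00000001506, chromosome 11, 94797538 to 94814356, plus strand, NCBIM37, the build of the deposited counts) encodes the main chain of type I collagen. Col1a1 had 10.3, 27.0 and 19.3 CPM at 1 week, 13, 11 and 9.35 CPM at 3 weeks and 4.47 and 5.80 CPM at 5 weeks, against 22.7, 13.4 and 26.5 CPM in WT. Both 5-week libraries lay below all the others, whereas the 1-week libraries overlapped those of WT. It was 4.03-fold lower at 5 weeks (log2 fold change -2.01 ± 0.36, SE, adjusted p = 0.000706), and -0.90 ± 0.30 at 3 weeks did not pass the test (adjusted p = 0.0534). The annotated antisense gene Gm17329 shares 109 exonic bases with Col1a1.

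Col1a2 (ENSMUSG00000029661, chromosome 6, 4454814 to 4491543, plus strand) encodes the other chain of type I collagen. It had 15.1, 47.5 and 25.2 CPM at 1 week, 18.1, 18.4 and 19.0 CPM at 3 weeks and 3.21 and 3.52 CPM at 5 weeks, against 25.7, 13.5 and 24.6 CPM in WT. The 5-week libraries stood apart from all others and the fall was 6.28-fold (-2.65 ± 0.45, adjusted p = 0.00121). Counts of Col1a1 were 0.568 to 0.767 times those of Col1a2 at 1 week, 0.492 to 0.719 times at 3 weeks and 1.4 and 1.65 times at 5 weeks, against 0.884 to 1.08 times in WT. The ratio was thus above the WT range at 5 weeks and below it at 1 and 3 weeks, a difference that was not tested, and it was taken within each library so that scaling does not enter it.

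Col3a1 (ENSMUSG00000026043, chromosome 1, 45368383 to 45406551, plus strand), the chain of type III collagen found beside type I in extensible tissues, had 17.3, 62.9 and 41.2 CPM at 1 week, 9.28, 15.6 and 8.67 CPM at 3 weeks and 1.54 and 4.51 CPM at 5 weeks, against 17.2, 13.2 and 26 CPM in WT. At 1 week 2 of 3 libraries were above every WT library, but the log2 fold change of 1.11 ± 0.56 did not pass the test (adjusted p = 0.261). At 5 weeks Col3a1 was 6.04-fold lower than in WT (-2.59 ± 0.71, adjusted p = 0.0283), and the call was lost without replicate 2 at 5 weeks (log2 fold change -2.04). The same call was also lost without WT replicate 1 (-2.64) or 3 (-2.27). Replicate 2 at 1 week was the highest of the 11 libraries for Col1a1, Col1a2 and Col3a1, and among the 1-week libraries it also had the highest sums of the mesothelial markers (27.3 CPM, against 19.3 and 13.4 CPM), the macrophage and leukocyte markers (309 CPM, against 91.2 and 177 CPM) and the acinar, duct and delta cell markers. Their part in the result was not tested.

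Col27a1 (ENSMUSG00000045672, chromosome 4, 62875038 to 62996025, plus strand), a fibrillar collagen best known from cartilage, was the most counted gene of this class at 3 and 5 weeks and in WT. It had 28.4, 29.0 and 39.8 CPM at 1 week, 25.1, 24.8 and 22.7 CPM at 3 weeks and 12.4 and 18.2 CPM at 5 weeks, against 19.4, 47.7 and 44.9 CPM in WT. The WT libraries spread over more than the difference at 3 weeks, and at 5 weeks both libraries were below WT replicate 1, the lowest control (2.44-fold lower, -1.29 ± 0.31, adjusted p = 0.00571). The Col27a1 call was lost without replicate 2 at 5 weeks (-1.03) and with library totals alone (-0.34).

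The other fibrillar genes stayed under 10 CPM. Col5a1 and Col5a3, chains of the type V collagen that starts fibrils, were lower at 3 weeks (-1.49 and -1.23) and at 5 weeks (-1.29 and -1.42), and the third chain, Col5a2, had -0.74 and -0.81 without passing the test. The Col5a3 call at 3 weeks was lost in 5 of 6 fits with a library left out (-0.99 without replicate 2 at 3 weeks), and without replicate 2 at 5 weeks both Col5a1 (-0.97) and Col5a3 (-0.98) lost theirs. Col11a1, whose product is a minor component of cartilage fibrils, was lower at 3 weeks (-1.39), a call lost in 3 of 6 such fits. Col2a1, the cartilage collagen, had only 0.123 to 0.514 CPM at 1 week and 0.277 to 0.322 CPM at 5 weeks, against 1.49 to 2.2 CPM in WT, with falls of 5.41-fold and 5.72-fold. Counts behind Col2a1 were 2 to 31 per library, so its size is poorly fixed, and its calls were lost in 4 of 6 and 3 of 5 fits with a library left out. Col11a2 and Col24a1 were called in no comparison.

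**Figure D2:**
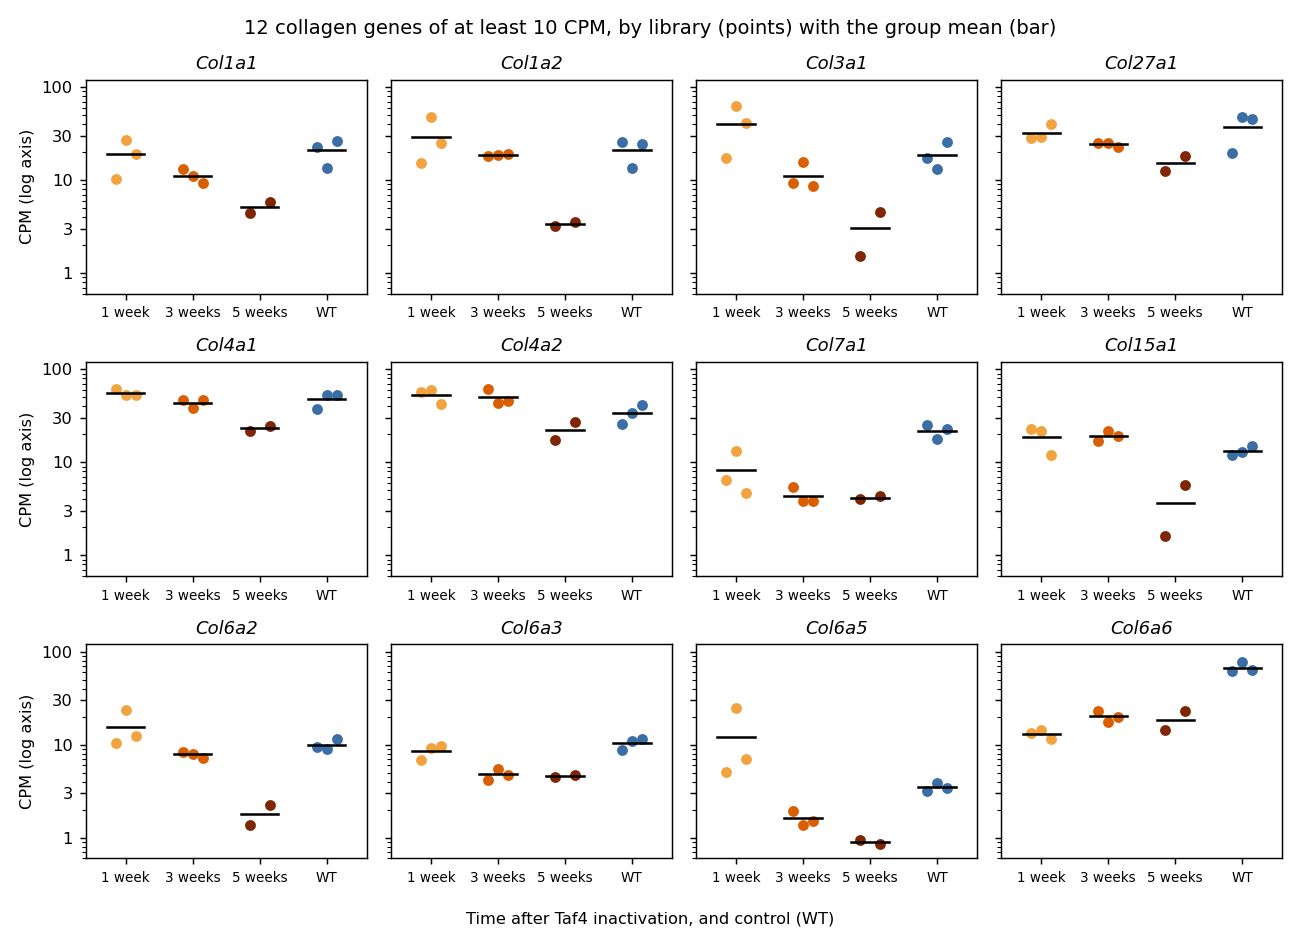
CPM in each library (points, log axis) and the group mean (bar) for the 12 collagens that reached 10 CPM in at least 1 group, at 1, 3 and 5 weeks after tamoxifen and in WT. In every panel but that of Col6a6 both 5-week points lie below every 1-week point, and Col6a6 (11.4 to 23.3 CPM in the mutants, 62.1 to 77.0 CPM in WT) and Col7a1 are below WT in all 8 mutant libraries.

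The type IV chains are encoded by pairs of genes that start next to each other and run in opposite directions. Col4a1 (ENSMUSG00000031502, chromosome 8, 11198423 to 11312826, minus strand) and Col4a2 (ENSMUSG00000031503, chromosome 8, 11312805 to 11449287, plus strand) encode the chains found in nearly all basement membranes, and their annotated exons overlap by 22 bases. The overlap, chr8:11312805-11312826 in NCBIM37 and read on the strand of Col4a2, is shown because it is the sequence from which both genes start, with a GC box in capitals.
Col4a1-Col4a2: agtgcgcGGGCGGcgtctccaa
Col4a1 had 61.1, 53.5 and 53.1 CPM at 1 week, 46.6, 38.3 and 46.5 CPM at 3 weeks and 21.9 and 24.7 CPM at 5 weeks, against 37.9, 53.6 and 53.5 CPM in WT. The first 6 values overlap those of WT, and the 5-week values are lower than every one of them (2.07-fold, -1.05 ± 0.18, adjusted p = 0.000133). With library totals alone the value of Col4a1 at 5 weeks was -0.083 and not called. Col4a2 had 57.2, 60.4 and 43 CPM at 1 week, 61.2, 43.4 and 46.0 CPM at 3 weeks and 17.3 and 26.9 CPM at 5 weeks, against 26.1, 33.9 and 41.6 CPM in WT.

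For Col4a2 all 6 libraries of 1 and 3 weeks were thus above all 3 of WT. The gene rose at 1 week (0.66 ± 0.20, adjusted p = 0.0395), had 0.57 ± 0.20 at 3 weeks without passing the test (adjusted p = 0.0552) and fell at 5 weeks (-0.61 ± 0.22, adjusted p = 0.0453). Each of these calls sat near the threshold. The call at 1 week was lost without WT replicate 1 (0.53) or 2 (0.68) and without replicate 1 (0.65) or 2 (0.59) at 1 week, and the call at 5 weeks without WT replicate 2 (-0.61) or 3 (-0.42) or without replicate 2 at 5 weeks (-0.32). With library totals alone the value at 5 weeks was 0.39, while that setting moved the median of all genes up by 0.99. Counts of Col4a1 were 0.886 to 1.24 times those of Col4a2 at 1 week, 0.762 to 1.01 times at 3 weeks and 0.920 and 1.27 times at 5 weeks, against 1.28 to 1.58 times in WT. All 8 mutant libraries lay below the lowest WT library in this ratio, which was not tested.

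Col4a3 (ENSMUSG00000079465, chromosome 1, 82583496 to 82718634, plus strand) and Col4a4 (ENSMUSG00000067158, chromosome 1, 82447298 to 82583424, minus strand) encode chains that assemble together with that of Col4a5 in specialised basement membranes such as that of the kidney glomerulus. Their annotated starts are 71 bases apart. That stretch, chr1:82583425-82583495 in NCBIM37 on the strand of Col4a3, is shown because the genes on its sides had different values at 5 weeks. It holds none of the 3 motifs, and 69% of its bases are G or C.
Col4a4-Col4a3: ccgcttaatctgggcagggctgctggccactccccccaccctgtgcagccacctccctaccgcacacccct
Col4a3 had 6.48, 4.69 and 3.46 CPM at 1 week, 6.65, 5.47 and 7.99 CPM at 3 weeks and 1.66 and 1.03 CPM at 5 weeks, against 7.94, 7.47 and 7.15 CPM in WT. The 5-week libraries were again lowest, and the fall was 5.63-fold (-2.49 ± 0.35, adjusted p = 1.71e-05). Col4a4 had 2.84, 1.99 and 2.41 CPM at 1 week, 3.98, 3.28 and 4.12 CPM at 3 weeks and 2.77 and 4.48 CPM at 5 weeks, against 3.36, 3.98 and 2.53 CPM in WT, and its log2 fold change at 5 weeks was 0.14 ± 0.35 (adjusted p = 0.798). Counts of Col4a3 were 1.43 to 2.35 times those of Col4a4 at 1 week, 1.67 to 1.94 times at 3 weeks and 0.6 and 0.229 times at 5 weeks, against 1.88 to 2.82 times in WT. The 5-week ratios were below all others, and the difference was not tested.

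Col4a5 and Col4a6, the third pair, lie head to head on the X chromosome. They had log2 fold changes of -2.07 ± 0.74 and -1.55 ± 0.59 at 5 weeks, just outside the threshold (adjusted p = 0.0512 and 0.0537). Col4a5 varied between 0.617, 7.45 and 1.45 CPM in the 1-week libraries alone, and the highest of them was again replicate 2. X linkage and the difference in Xist between mutant and WT libraries accompany these values, and their part in the result was not tested.

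**Figure D3:**
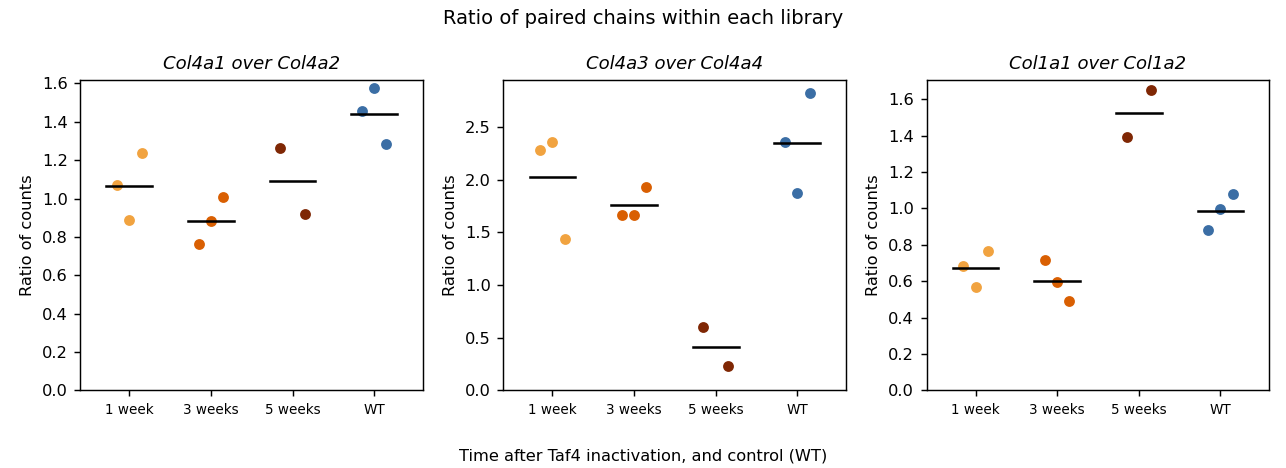
Ratio of counts of paired chains within each library (points) with the group mean (bar), at 1, 3 and 5 weeks after tamoxifen and in WT, each on an axis from zero. Col4a1 over Col4a2 is below the WT range in all 8 mutant libraries, Col4a3 over Col4a4 is 0.6 and 0.229 at 5 weeks only, and Col1a1 over Col1a2 is above the WT range at 5 weeks and below it before.

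Among the other collagens the type VI genes, which build the beaded microfilaments around cells, gave the most calls. With Col28a1, a related gene, 7 genes of this kind were measured, of which 1 was higher and 1 lower at 1 week, 3 were lower at 3 weeks and all 7 were lower at 5 weeks. Col6a6 (ENSMUSG00000043719, chromosome 9, 105591747 to 105730415, minus strand), Col6a5 (ENSMUSG00000091345, 105758400 to 105862974) and Col6a4 (ENSMUSG00000032572, 105891785 to 105999114) follow each other on the same strand of chromosome 9. All 3 products can take the place of the chain of Col6a3 in type VI collagen.

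Col6a6 had the highest CPM of all 43 collagens in WT. It had 13.5, 14.3 and 11.4 CPM at 1 week, 23.3, 17.7 and 19.9 CPM at 3 weeks and 14.5 and 22.9 CPM at 5 weeks, against 62.1, 77.0 and 63.0 CPM in WT. Every mutant library lay far below the lowest WT library. Col6a6 was 5.15-fold lower at 1 week (-2.36 ± 0.18, adjusted p = 2.97e-08), 3.32-fold lower at 3 weeks (-1.73 ± 0.18, adjusted p = 1.67e-06) and 3.6-fold lower at 5 weeks (-1.85 ± 0.20, adjusted p = 9.45e-07). All 3 calls held under every alternative setting run, including each library left out. Unlike most collagens, its values at 3 and 5 weeks were not below those at 1 week (0.63 ± 0.18 and 0.52 ± 0.20 against 1 week, adjusted p = 0.0559 and 0.0781).

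Its neighbour Col6a5 took the opposite direction at 1 week. Col6a5 had 5.06, 24.6 and 7.08 CPM at 1 week, 1.95, 1.38 and 1.51 CPM at 3 weeks and 0.950 and 0.850 CPM at 5 weeks, against 3.18, 3.84 and 3.44 CPM in WT. All 1-week libraries were above, and all later mutant libraries below, the 3 of WT. The rise at 1 week (1.81 ± 0.45, adjusted p = 0.0189) rested on replicate 2, without which the log2 fold change was 0.82 and not called, and it was also not called without WT replicate 1, 2 or 3 (1.78 to 1.91). The fall at 5 weeks (-1.95 ± 0.57, adjusted p = 0.0159) was not called with only 1 of the 5-week libraries (-2.02 without replicate 2 and -1.86 without replicate 3). Counts of Col6a6 were 2.67, 0.580 and 1.61 times those of Col6a5 at 1 week, 12.0 to 13.1 times at 3 weeks and 15.3 and 26.9 times at 5 weeks, against 18.3 to 20 times in WT. Col6a4, the last of the row, had at most 2.90 CPM in mutants and at least 4.07 CPM in WT and fell at 3 weeks (-1.84) and 5 weeks (-1.63, not called without replicate 2 at 5 weeks, -1.50).

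Col6a1, Col6a2 and Col6a3 encode the classical chains of type VI collagen, and all were lower at 5 weeks. Col6a2 (ENSMUSG00000020241, chromosome 10, 76058507 to 76086375, minus strand) had 10.4, 23.4 and 12.3 CPM at 1 week, 8.43, 7.91 and 7.26 CPM at 3 weeks and 1.39 and 2.23 CPM at 5 weeks, against 9.43, 9.10 and 11.4 CPM in WT. Its fall at 5 weeks was 5.44-fold (-2.44 ± 0.33, adjusted p = 1.37e-05). Col6a1, on the same strand of chromosome 10, had 0.356 and 1.49 CPM at 5 weeks, against 6.54, 5.12 and 10.3 CPM in WT, and with 7.56-fold (-2.92 ± 0.55, adjusted p = 0.00113) it had the largest fall of all 43 genes in that comparison. Col6a3 (ENSMUSG00000048126, chromosome 1, 92663435 to 92740529, minus strand) had 6.85, 9.24 and 9.58 CPM at 1 week, 4.19, 5.51 and 4.75 CPM at 3 weeks and 4.55 and 4.75 CPM at 5 weeks, against 8.78, 11.1 and 11.7 CPM in WT. Col6a3 was already lower at 3 weeks (-1.12 ± 0.23, adjusted p = 0.00196), and its fall at 5 weeks was of like size (-1.18 ± 0.26, adjusted p = 0.00175). Both calls of Col6a3 were lost with library totals alone (-0.47 and -0.20).

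Col7a1 (ENSMUSG00000025650, chromosome 9, 108855631 to 108886920, plus strand) encodes type VII collagen, which forms the anchoring fibrils that tie epithelial basement membranes to the tissue beneath. It had 6.48, 13.4 and 4.67 CPM at 1 week, 5.42, 3.81 and 3.86 CPM at 3 weeks and 4 and 4.34 CPM at 5 weeks, against 25.2, 18.0 and 22.7 CPM in WT. No mutant library overlapped WT. The falls were 2.66-fold at 1 week (-1.41 ± 0.29, adjusted p = 0.00424), 5.01-fold at 3 weeks (-2.33 ± 0.30, adjusted p = 3.12e-05) and 5.25-fold at 5 weeks (-2.39 ± 0.34, adjusted p = 3.92e-05), and each was called under every alternative setting run. Its exons contain the microRNA gene Mir711 on the same strand, with 36 shared bases.

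Col15a1 (ENSMUSG00000028339, chromosome 4, 47221033 to 47326039, plus strand) encodes type XV collagen, which links basement membranes to nearby fibrils. It had 22.8, 21.6 and 11.9 CPM at 1 week, 16.9, 21.5 and 19.3 CPM at 3 weeks and 1.62 and 5.77 CPM at 5 weeks, against 12.1, 12.8 and 14.8 CPM in WT. All 3 libraries of 3 weeks were above WT without passing the test (0.54 ± 0.34, adjusted p = 0.321), and both 5-week libraries were below every other (3.51-fold, -1.81 ± 0.41, adjusted p = 0.00507). Col18a1, the other collagen of this subclass, had 1.44, 0.770 and 1.25 CPM at 3 weeks, against 2.90, 3.34 and 8.86 CPM in WT, and was called lower at 3 weeks (-2.12) but not at 5 weeks (-1.18, adjusted p = 0.129). Without WT replicate 3, the highest control, the value of Col18a1 at 3 weeks was -1.42 and not called, nor was it without replicate 2 at 3 weeks (-1.89). Counting both with type IV as collagens of the basement membrane zone gave 4 of 8 lower at 5 weeks, 1 of 8 lower at 3 weeks and 1 of 8 higher at 1 week.

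Of the 9 fibril-associated collagens, which sit on the surface of fibrils, Col12a1, Col14a1, Col16a1 and Col22a1 were called. Col14a1 was lower at 3 weeks (-1.08) and 5 weeks (-2.01), with 2.10 and 1.93 CPM at 5 weeks, against 8.41, 7.18 and 8.86 CPM in WT. Col12a1 was lower at 5 weeks (-1.56), a call lost with library totals alone (-0.58). Col16a1 was lower at all 3 times (-1.55, -1.36 and -1.46), and Col22a1 at 1 week (-1.45) and 5 weeks (-1.59). The call of Col22a1 was lost in all 6 fits with a library left out at 1 week and in 4 of 5 at 5 weeks, and that of Col16a1 in 3 of 6, 4 of 6 and 3 of 5 at the 3 times (-0.93 at 5 weeks without replicate 2). The call of Col14a1 at 3 weeks was lost in 4 of 6. Col28a1 was lower at 5 weeks (-1.25), a call lost without replicate 2 (-1.25) or 3 (-1.22) at 5 weeks. The 4 transmembrane collagens (Col13a1, Col17a1, Col23a1 and Col25a1) and the 3 short-chain collagens (Col8a1, Col8a2 and Col10a1) were called in no comparison. Their log2 fold changes at 5 weeks ran between -0.72 (Col25a1) and 0.57 (Col8a2), and their counts were at most 113 in any library.

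Levels of different genes can be compared only per length. The deposited signal divides by the median length of a gene's transcripts, which was 0.49 kb for Col1a1, 0.92 kb for Col4a2 and 0.70 kb for Col15a1 although their annotated exons cover 6.56, 6.62 and 6.35 kb, so CPM per kilobase of all annotated exons was used instead. On this scale Col6a6 came first in WT with 9 CPM per kb, before Col4a1 (7.09), Col4a2 (5.12), Col1a1 (3.18), Col27a1 (2.87) and Col3a1 (2.24). The WT libraries of Col6a6 did not overlap those of Col4a1, while each later pair of neighbours in this order overlapped. At 1 week Col4a1 (8.20) and Col4a2 (8.09) came first, at 3 weeks Col4a2 (7.58) and Col4a1 (6.42), and at 5 weeks Col4a1 (3.42), Col4a2 (3.34) and Col6a6 (2.5), and at each time the libraries of Col4a1 and Col4a2 overlapped. On the deposited signal, in contrast, Col1a1 (729) and Col4a2 (633) led in WT and Col6a6 (163) came sixth, so the order depends on the length used.

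The share of each class in the summed collagen CPM was described without a test. Type IV chains made up 26.7 to 39.3% of collagen CPM at 1 week, 34.6 to 39.5% at 3 weeks and 31.8 and 33.3% at 5 weeks, against 21.7 to 25.1% in WT, so every mutant library was above every WT library. With Col6a6 left out of the total, an alternative chosen after seeing the data, the shares were 27.5 to 41.0%, 37.0 to 42.7% and 36.3 and 37.2%, against 25.7 to 30.8% in WT, so that 2 of 3 libraries of 1 week lay within the WT range. The 26 other collagens made up 29.1 to 33.9%, 34.2 to 35.4% and 41.5 to 43% at 1, 3 and 5 weeks, against 43.2 to 48.5% in WT. Fibrillar collagens took 27.4 to 41.2%, 26.3 to 30% and 25.2% in both libraries, against 27.1 to 32.5% in WT. Without Col6a6 in the total, the fibrillar shares were 28.6 to 42.6%, 28.4 to 32.1% and 28.2 and 28.7%, against 33.1 to 37.7% in WT. Every library of 3 and 5 weeks then lay below WT, and at 1 week the libraries lay on both sides. The remaining other collagens then took 26.7 to 31.9%, 28.9 to 30.9% and 34.55 and 34.95%, against 34.08 to 38.84% in WT. Their shares at 5 weeks thus lay within the WT range. In TMM-scaled CPM the fibrillar sum was 90.9 to 190.2 CPM at 1 week, 74.9 to 81.9 CPM at 3 weeks and 34.6 and 46.6 CPM at 5 weeks, against 113.6 to 147.7 CPM in WT. The type IV sum was 103.9 to 130.3 CPM at 1 week and 94.5 to 123 CPM at 3 weeks, which both overlapped the 84.8 to 110.3 CPM of WT. At 5 weeks the type IV sum was 45.7 and 58.9 CPM. All collagens together came to 137 and 185 CPM at 5 weeks, against 392 to 454 CPM in WT. As shares of all counts, without TMM, all collagens took 0.0195 and 0.0293% at 5 weeks, against 0.0255 to 0.0426% in WT, so the groups overlapped. So did type IV chains (0.0065 and 0.0093%, against 0.0055 to 0.0107%) and other collagens (0.0081 and 0.0126%, against 0.0121 to 0.0203%). Fibrillar collagens (0.0049 and 0.0074%, against 0.0076 to 0.0115%) did not overlap.

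Markers of cell types known to make collagens were summed in the same way. The 14 mesenchyme markers summed to 259 to 281 CPM at 1 week, 204 to 219 CPM at 3 weeks and 42.6 and 59.9 CPM at 5 weeks, against 216 to 390 CPM in WT, and 2, 8 and 12 of the 14 were called lower at these times, against 4.35, 7.84 and 14.2% of all genes. Dcn, a proteoglycan that binds collagen fibrils, had -5.30 at 5 weeks, Acta2, a smooth muscle actin, -6.06, and Rgs5, a pericyte marker, -3.22, while Mgp rose (1.12) and Pdgfrb, a receptor of pericytes, had -0.36 and was not called. The 10 endothelium markers summed to 306 to 389 CPM at 1 week, 342 to 349 CPM at 3 weeks and 99.3 and 137 CPM at 5 weeks, against 270 to 380.3 CPM in WT, and 8 of the 10 were lower at 5 weeks, against 14.2% of all genes, among them Plvap (-3.10) and Flt1 (-2.09). No marker of these 2 lists was without counts in any library. In TMM-scaled CPM the sums of both lists were lowest at 5 weeks, as were those of the 3 collagen classes. As shares of all counts, the endothelium markers of 5 weeks (0.0141 and 0.0217%) overlapped those of WT (0.0176 to 0.0307%). The mesenchyme markers (0.0067 and 0.0085%, against 0.0141 to 0.0256% in WT) did not. Within 1 week the CPM sums differed in order: the fibrillar sum was lowest in replicate 1 (90.9 CPM), which had the highest mesenchyme sum (281 CPM). Macrophage and leukocyte markers summed to 91.2 to 309 CPM at 1 week, 62.5 to 66.5 CPM at 3 weeks and 38.1 and 40.3 CPM at 5 weeks, against 58.5 to 83.8 CPM in WT, and the beta cell markers were also lowest in both 5-week libraries. The acinar sum was below WT in every library of 3 and 5 weeks, whereas in TMM-scaled CPM replicate 2 at 1 week was above WT replicate 2. As a share of counts, replicate 2 at 1 week (21.1%) was below WT replicate 2 (25.2%). The part of cell composition in the collagen values was not tested.

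**Figure D4:**
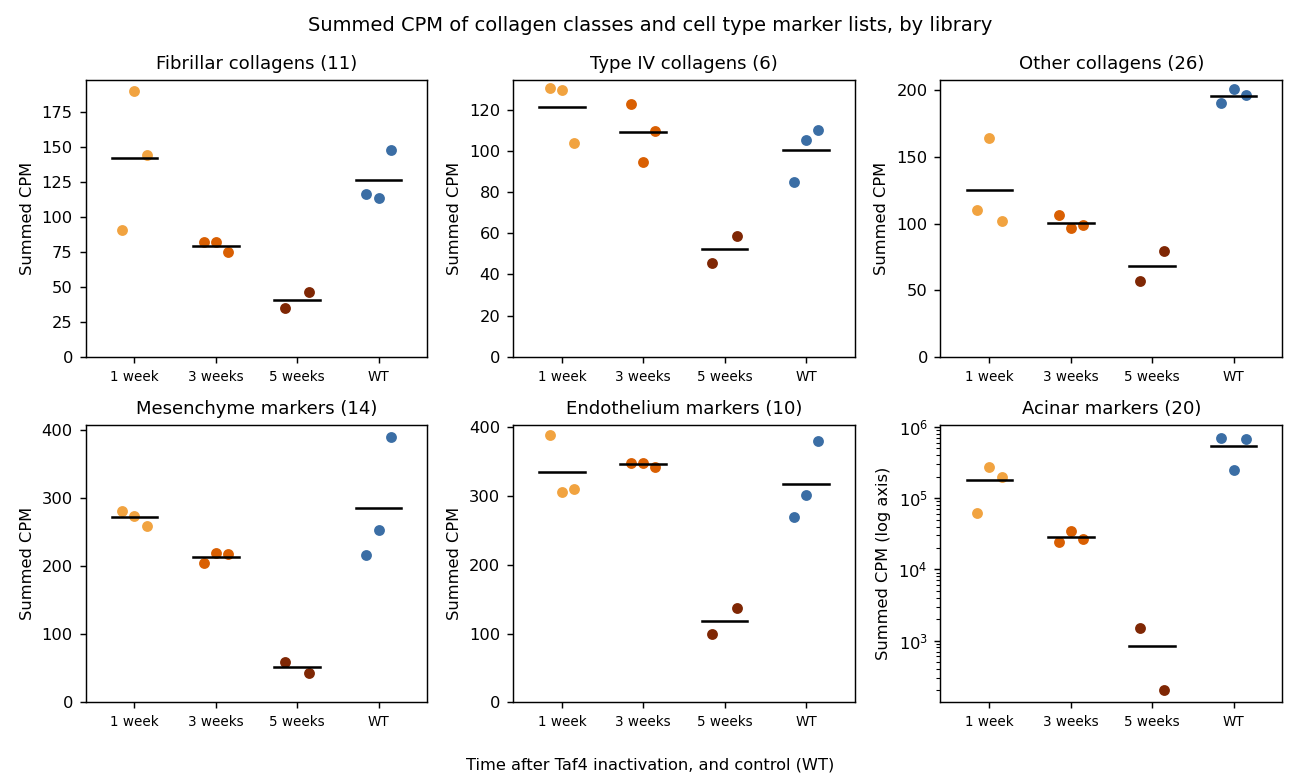
Summed CPM in each library (points) and group means (bars) of the 3 collagen classes and of 3 lists of cell type markers, at 1, 3 and 5 weeks after tamoxifen and in WT; the acinar panel has a log axis. On this TMM scale the fibrillar and type IV sums and the mesenchyme and endothelium sums are lowest in the 2 libraries of 5 weeks. The sum of the 26 other collagens is lower in all 8 mutant libraries than in WT. This order depends on Col6a6, without which replicate 2 at 1 week is above every WT library. As shares of all counts, the type IV, other and endothelium sums of 5 weeks overlap those of WT.

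Genes that make collagen were described from a list of 30 measured enzymes, chaperones and crosslinkers. Of these, 3 were lower and 2 higher at 1 week, 8 lower and 0 higher at 3 weeks, and 14 lower and 1 higher at 5 weeks, with medians of -0.18, -0.65 and -1.06. Of all genes, 4.35, 7.84 and 14.2% were lower and 5.45, 8.51 and 15.2% higher at these times, and the medians were -0.04, -0.05 and -0.03. Serpinh1 (Hsp47), the collagen-specific chaperone of the endoplasmic reticulum, was lower at 3 weeks (-1.10) and 5 weeks (-1.29). Ppib, a prolyl isomerase, and P4hb, a subunit of prolyl 4-hydroxylase that also serves as protein disulfide isomerase in secretory cells, were lower at all 3 times (-0.87, -1.59 and -1.91 for Ppib and -0.53, -0.60 and -0.74 for P4hb). Bmp1, which removes the C-propeptide, was lower at all 3 times too (-0.69, -0.77 and -1.51), and Loxl2, a crosslinking enzyme, at 5 weeks (-1.44). Sparc, a collagen-binding protein, rose at 1 week (0.67) and fell at 5 weeks (-1.20), and Glt25d1, a collagen galactosyltransferase, rose at 5 weeks (0.93).

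Type IV collagen is held in the basement membrane together with laminins, nidogens and perlecan. Of 10 genes for such partners, 1 was higher (Lama2, 0.87) and 1 lower (Agrn, -0.99) at 1 week (5.45 and 4.35% of all genes). At 3 weeks 2 were lower (7.84% of all genes). All 10 were lower at 5 weeks (14.2% of all genes), including Hspg2 (perlecan, -3.12), the laminin chain Lama5 (-2.58) and Nid1 (nidogen, -1.52). Of 12 tested genes of collagen breakdown and its inhibitors, 4 were lower at 5 weeks (14.2% of all genes), among them the inhibitors Timp3 (-2.88) and Timp2 (-1.42). Of 9 collagen receptors, 1 was lower at 1 week, 3 at 3 weeks and 2 at 5 weeks, against 4.35, 7.84 and 14.2% of all genes. The integrin chain Itga1 was among the lower receptors at 3 weeks (-0.57) and 5 weeks (-3.08). TGF-beta, a major inducer of fibrillar collagen genes, was followed through 19 genes of its pathway, of which 3 were lower and 0 higher at 1 week, 7 lower and 1 higher at 3 weeks and 9 lower and 5 higher at 5 weeks. The shares of all genes at these times were 4.35, 7.84 and 14.2% lower and 5.45, 8.51 and 15.2% higher. The latent TGF-beta binding proteins Ltbp4 (-3.50) and Ltbp3 (-1.67) and the signal transducer Smad3 (-1.67) were lower, and Smad7 (1.28), an inhibitor of the pathway that is also one of its targets, was higher.

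Comparisons among the mutants leave WT and the difference in sex-linked genes aside. Between 5 weeks and 1 week, 14 collagens were lower and 0 higher, where 8.77% of all genes were lower and 7.85% higher. They were 4 of 11 fibrillar, 3 of 6 type IV and 7 of 26 other collagens, with class medians of -0.83, -1.27 and -0.52. Falls ran up to 13.6-fold for Col6a5 (-3.76 ± 0.57, adjusted p = 0.000272) and 13-fold for Col3a1 (-3.71 ± 0.73, adjusted p = 0.0120), and those of Col4a1 (-1.26 ± 0.18, adjusted p = 3.29e-05) and Col4a2 (-1.28 ± 0.23, adjusted p = 0.000587) were of like size. Without replicate 2 at 1 week, its highest library, Col6a5 had -2.76 and was still called, whereas the call of Col3a1 was lost without replicate 2 at 5 weeks (-3.16) and with only the compared groups fitted (-3.73). Of the 14 calls, 8 held with each library left out. DESeq2 called 14 lower and 0 higher, and 2 were higher at an unadjusted p below 0.05 in edgeR. The count was 9 without replicate 2 at 5 weeks and 8 with library totals alone, where Col4a1 (-0.46) and Col4a2 (-0.46) were among the calls lost.

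Between 3 weeks and 1 week, 2 collagens were lower and 0 higher, where 2.26% of all genes were lower and 0.956% higher. They were Col6a2 (1.95-fold, -0.97 ± 0.26, adjusted p = 0.0427) and Col6a5 (7.57-fold, -2.92 ± 0.47, adjusted p = 0.00320), of which Col6a5 passed the limit of 1 on the log2 scale, as did 1.29% of all genes. The call of Col6a5 held with each library left out, and that of Col6a2 was lost in 5 of 6 such fits (-0.54 without replicate 2 at 1 week). The median log2 fold change was -0.65 in fibrillar and 0.16 in type IV collagens, of which none was called. DESeq2 called 7 lower and 1 higher, and 1 was higher at an unadjusted p below 0.05 in edgeR. The count was 7 without replicate 1 at 1 week, and 1 without replicate 2 at 1 week or without any 1 of the 3 libraries of 3 weeks. The 4 mesothelial markers summed to 2.12 to 3.18 CPM at 3 weeks, against 13.4 to 27.3 CPM at 1 week, and their part in these values was not tested.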

How the data were processed

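Libraries were made with the Ovation RNA-seq V2 and Ultralow kits. Per the labels and the study's methods, the authors trimmed reads with cutadapt 1.10, removed ribosomal reads with Bowtie2 2.2.8, aligned the rest to mm9 with STAR 2.5.3a and counted reads per gene of Ensembl 67 with htseq-count 0.6.1p1. The authors deposited these raw counts and a signal, the counts divided by DESeq2 size factors and by the median transcript length in kilobases, of which the counts were tested and the signal served only to show how the order of levels depends on length. Deposited columns with the authors' own fold changes and p-values, and the lists taken from them, were not used. Genes passing filterByExpr were fitted with edgeR 4.0.16 (R 4.3.3; quasi-likelihood, robust, TMM, 1 coefficient per group, all 11 libraries), with Benjamini-Hochberg adjustment across all 20180 tested genes, separately in each of 5 comparisons. SE is the log2 fold change divided by the square root of F. Use of strand in counting is not given in the sources used here, and without it reads of a gene and its antisense partner cannot be told apart. Positions and exon lengths came from GENCODE M1 on NCBIM37, in which 34484 of 34820 identifiers were found. Replicates are separate pools of mice per the methods and were counted as separate on that ground. Within a group the lowest chi-square per degree of freedom between 2 libraries was 5.76. That is more than count noise, but it cannot tell separate pools from repeat libraries of 1 pool. Genes described in full are those with a mean of 10 CPM in any group. Genes of other lists are named when called and at that level, up to 4 per list and comparison, with Pdgfrb as a fixed addition. Low collagens and their extremes were chosen after their values were seen. The collagen genes and the gene lists were chosen with earlier results of these data known. Alternatives were library totals, DESeq2 1.42.0 and its size factors, pan-endocrine scaling (12 genes), removal of 20 acinar markers, other filters, only the groups compared, a replicate block, and each library left out. The fit was also run on simulated data, as a check of the code only.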

Additional observations from a re-analysis of the deposited data

Results flagged for a closer look

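For 16 results the mutant groups differed between times, by the direct test of these groups against each other, which equals the difference of their contrasts with the shared WT libraries. No WT library is matched to a time, so the effect of Taf4 inactivation cannot be told apart from other differences between the mutant groups. Between 3 weeks and 1 week the results were Col6a2 (log2 fold change -0.97) and Col6a5 (-2.92). Between 5 weeks and 1 week they were the fibrillar Col1a1 (-1.87), Col1a2 (-3.12), Col3a1 (-3.71) and Col27a1 (-1.07), the type IV chains Col4a1 (-1.26), Col4a2 (-1.28) and Col4a3 (-1.88), and the others Col6a1 (-3.10), Col6a2 (-3.07), Col6a3 (-0.88), Col6a5 (-3.76), Col7a1 (-0.98), Col14a1 (-1.47) and Col15a1 (-2.32). All were lower at the later time. With 1 library left out at a time, the calls between 5 weeks and 1 week were lost in 4 of 5 fits for Col6a3, 3 of 5 for Col7a1 (-0.44 without replicate 2 at 1 week) and for Col27a1 (-0.82 without replicate 2 at 5 weeks), 2 of 5 for Col14a1 (-0.95 without replicate 1 at 1 week), and 1 of 5 for Col1a1 (-1.69) and Col3a1 (-3.16), both without replicate 2 at 5 weeks. Between 3 weeks and 1 week, that of Col6a2 was lost in 5 of 6. No group had enough libraries to look for a single one that stood apart.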

How the results depend on the processing

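Counts of collagens called lower were 5, 10 and 23 at 1, 3 and 5 weeks against WT, 2 between 3 weeks and 1 week and 14 between 5 weeks and 1 week, and those called higher were 2, 0, 0, 0 and 0. With library totals alone, the lower counts at 3 and 5 weeks were 4 and 10, that between 5 weeks and 1 week was 8, and the higher counts were 2 at 3 weeks, 2 at 5 weeks, 2 between 3 weeks and 1 week and 5 between 5 weeks and 1 week. That setting moved the median of all genes by 0.19, 0.66, 0.99, 0.47 and 0.80, and it turned the direction of Col1a1 at 1 week (0.073), of Col1a2 (0.54), Col4a1 (0.49) and Col6a2 (0.34) at 3 weeks, of Col4a2 at 5 weeks (0.39), of the fibrillar median at 1 week (0.04) and of the type IV median at 3 weeks (0.49). Relative to all genes, the median over the collagens was then -0.43, -0.63 and -1.29. These relative medians could hardly change, since a new scaling shifts all genes about alike. Scaling by pan-endocrine genes, which moved the median of all genes by -0.23, -0.22, 0.47, 0.01 and 0.70, gave 8 lower and 1 higher at 1 week, 4 higher between 5 weeks and 1 week, and -0.00052 for Col4a1 at 1 week. A filter of 10 CPM kept few collagens and gave lower counts of 2, 3, 10, 1 and 9 and higher counts of 0 at 1 week and 1 between 3 weeks and 1 week. No filter gave 2 higher at 3 weeks, 6 lower and 1 higher between 3 weeks and 1 week, and 2 higher between 5 weeks and 1 week. DESeq2 gave 1 higher at 3 weeks, and 7 lower and 1 higher between 3 weeks and 1 week. Fits of the compared groups only gave 1 higher at 1 week, 2 higher at 3 weeks and 1 higher between 3 weeks and 1 week. The study's thresholds gave 1 higher at 1 week and 1 lower between 3 weeks and 1 week, and removing acinar markers gave 1 higher at 3 weeks. The 15 same-numbered pairs had correlations of deviations between -0.11 and 0.19, so numbers do not pair the libraries, and the replicate block gave 1 higher at 1 week, 1 lower between 3 weeks and 1 week and 1 higher between 5 weeks and 1 week. Leaving out 1 library at a time gave 2 to 5 lower and 0 to 2 higher at 1 week, 6 to 9 lower and 0 to 1 higher at 3 weeks, 12 to 22 lower at 5 weeks, 1 to 7 lower between 3 weeks and 1 week, and 9 to 15 lower and 0 to 1 higher between 5 weeks and 1 week. At 1 week it gave -0.47 to 0.19 for Col1a1, -0.048 to 0.82 for Col1a2 and -0.49 to 0.028 for Col27a1, none of them called. Where this leaves 1 library at 5 weeks, its spread is taken from the other groups. The causes of these changes were not tested.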
